A study of Homo sapiens with 4 samples.

Results

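The expression of 10 genes of the Notch pathway was examined in RNA sequencing of laryngeal squamous cell carcinoma (LSCC) cells with and without knockdown of SKA3. The 10 genes were chosen by name for their place in the pathway: the receptors NOTCH1, NOTCH2 and NOTCH3, the ligands JAG1, JAG2 and DLL1, the receptor-modifying enzyme LFNG, the DNA-binding factor RBPJ, and the target genes HES1 and HEY1. Earlier results of these data were known when the choice was made. All 10 were found among the 28729 genes of the expression table, and 9 passed the filter on low values. The SKA3 protein acts at the outer kinetochore, and cells need it for chromosomes to separate properly when they divide. All 4 libraries came from TU-177, an LSCC cell line. The negative control group (NC, 2 libraries) received lentivirus with a negative control, and the knockdown group (SKA3-KD, 2 libraries) received lentivirus with an shRNA against SKA3. Cells of both groups were selected with puromycin and harvested as resistant cells. The labels name 1 cell line and do not tell how many shRNAs were used, so an effect particular to an shRNA or to this line cannot be told apart from an effect of SKA3 loss. The sources describe the knockdown differently: the labels give a lentiviral shRNA, and the study's methods also describe guide RNAs with Cas9 for stable knockdown lines. Nothing states that libraries of a group came from separate cultures, so the p-values rest on a spread between libraries that may be technical. That spread was estimated with information shared across genes of similar level.

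Notch signalling passes between touching cells. A ligand of the Jagged or Delta-like family on one cell pulls on a Notch receptor on its neighbour, the receptor is then cut by an ADAM protease and by gamma-secretase, and the freed intracellular domain enters the nucleus, where it joins RBPJ and a Mastermind co-activator on DNA and switches on genes such as those of the HES and HEY repressor families. Without the intracellular domain, RBPJ can keep the same genes silent with co-repressors. In squamous epithelium the pathway is known for its part in the move from the basal layer to differentiation, and both growth-restraining and growth-promoting roles have been described in squamous carcinomas.

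RBPJ was the only 1 of the 9 tested Notch genes that passed the adjusted threshold, and it fell to 0.722 times its NC level. No gene of the set rose past the threshold. NOTCH2 and NOTCH3 lay lower, and NOTCH1, JAG1, JAG2 and LFNG higher, in both SKA3-KD libraries than in both NC libraries, and none of these 6 passed. HES1 and HEY1 overlapped between the groups. Of all 12645 genes tested, 6.11% were called lower and 6.16% higher, and the share without overlap between the groups was 29.2% lower and 32.3% higher, so that 1 lower call and 7 of 9 genes without overlap stand beside a background in which most genes showed no overlap. The median log2 fold change was 0.04 over the 9 tested Notch genes and 0.01 over all genes tested.

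The values are FPKM, fragments scaled to gene length and to the size of the library. Comparisons between genes rest on the gene lengths that the authors used, which were not known here for every gene. The library sizes behind them were between 9015056 and 11966130, and 1 read on a gene of 1 kilobase was worth between 0.0836 and 0.111 FPKM. Fold changes are on the log2(FPKM + 1) scale of the limma test, which understates changes of low genes. SKA3 itself, the targeted gene (ENSG00000165480), was at 9.40 and 9.64 FPKM in NC and at 3.77 and 4.12 FPKM in SKA3-KD. The groups did not overlap, and the log2 fold change of SKA3 was -1.09 (SE 0.07, limma adjusted p = 0.00806). Its log2 fold change was -1.11 without NC 1, -1.07 without NC 2, -1.04 without SKA3-KD 1 and -1.14 without SKA3-KD 2. The call was lost without either NC library and kept without either SKA3-KD library. Of 8 listed epithelial markers, 5 were under 1 FPKM in every library. The basal keratins KRT5, KRT14 and KRT6A were at or under 0.103 FPKM. TP63 was at 0.348 to 0.580 FPKM, and the cell adhesion gene CDH1 was at 0.149 to 0.447 FPKM. The markers that define basal squamous cells were thus nearly absent, so the squamous label of the line was borne out only in part, and the identity of the line was not tested. Among the other listed markers, SFN stood at 133 to 155 FPKM and EPCAM at 2.73 to 2.95 FPKM. KRT17 was at 45.6 and 49.1 FPKM in NC and at 29.4 and 35.7 FPKM in SKA3-KD, and it fell by 0.53 on the log2 scale (limma adjusted p = 0.0396). The 3 measured fibroblast markers summed to 4.10 and 4.97 FPKM in NC and to 3.19 and 3.08 FPKM in SKA3-KD, mostly from COL1A1 (limma adjusted p = 0.140). The 3 measured endothelial markers summed to between 0.165 and 0.397 FPKM, and the 3 measured leukocyte markers to between 0 and 0.131 FPKM. In such bulk libraries, fewer cells of a type and less RNA per cell cannot be told apart.

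**Figure D1:**
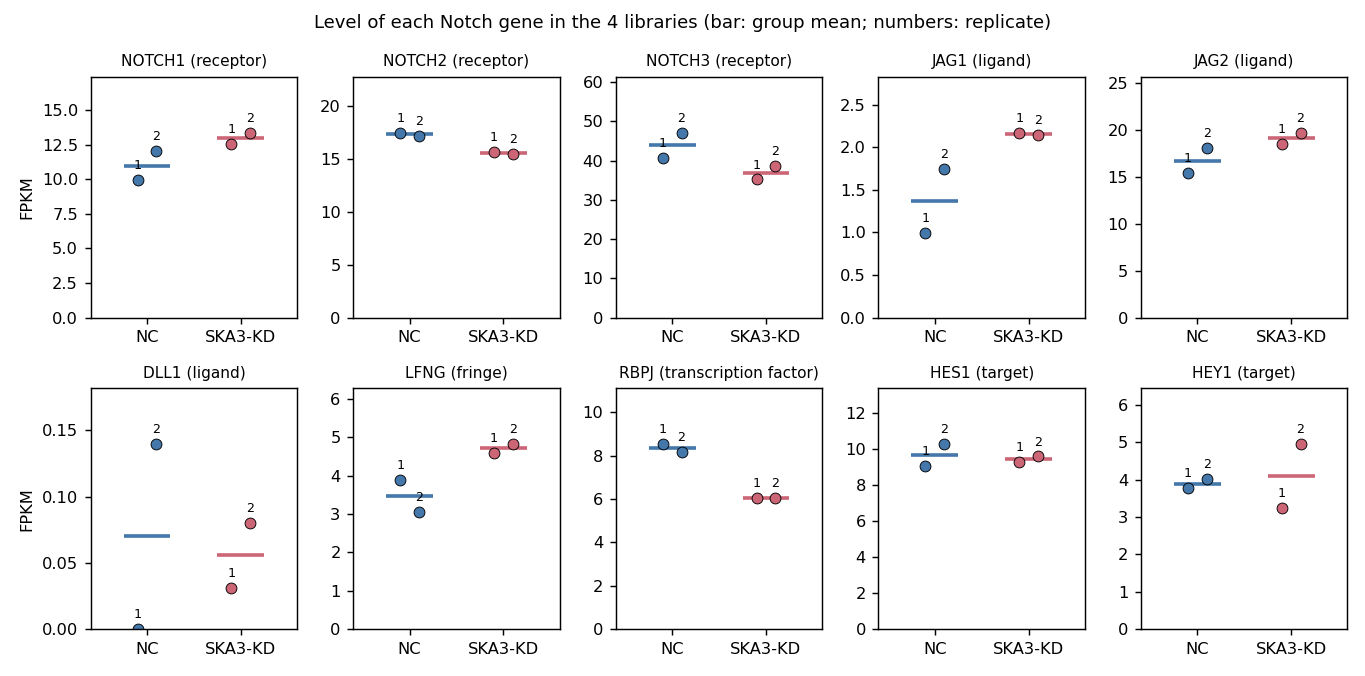
FPKM of the 10 Notch genes in each library, 1 panel per gene with its own linear axis from 0. Points are single libraries (2 NC, 2 SKA3-KD) and horizontal lines are group means. RBPJ stood at 8.54 and 8.17 FPKM in NC and at 6.03 FPKM in both SKA3-KD libraries, while HES1 and HEY1 overlapped between the groups.

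NOTCH3 was the most abundant receptor, NOTCH2 came next and NOTCH1 followed, in every library. NOTCH3 (ENSG00000074181) was at 40.6 and 47.1 FPKM in NC and at 35.2 and 38.6 FPKM in SKA3-KD, a level above 90.7% of the genes tested. Both SKA3-KD libraries lay under both NC libraries, and the nearest libraries of the groups were closer to each other than the NC libraries were. The group means of NOTCH3 were 43.8 ± 4.63 and 36.9 ± 2.39 FPKM (SD, n = 2 each), and its log2 fold change was -0.24 (95% interval -0.48 to 0.00, limma adjusted p = 0.161), which missed the threshold. It was -0.13 without NC 2 and -0.35 without NC 1.

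NOTCH2 (ENSG00000134250) was at 17.5 and 17.2 FPKM in NC and at 15.6 and 15.5 FPKM in SKA3-KD. It was the receptor with the closest replicates, and its groups did not overlap. NOTCH2 had a log2 fold change of -0.15 (95% interval -0.30 to 0.00, limma adjusted p = 0.165). NOTCH2 has near-identical partial copies in the human genome, the NOTCH2NL genes, which are not analysed here, and the part of its reads that could belong to them is uncertain.

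NOTCH1 (ENSG00000148400), a receptor known for its role in keratinocyte differentiation, was at 9.95 and 12.0 FPKM in NC and at 12.5 and 13.4 FPKM in SKA3-KD. Both SKA3-KD libraries lay above both NC libraries, with NC 2 close to SKA3-KD 1. The log2 fold change of NOTCH1 was 0.22 (95% interval -0.04 to 0.49, limma adjusted p = 0.214), and it was 0.10 once the dependence of fold changes on GC content and gene length was removed. Without NC 1 the value for NOTCH1 was 0.097, and without NC 2 it was 0.35. NOTCH4, the receptor of endothelial cells, was at 0.0202 to 0.0455 FPKM, or 2 to 4 reads per library.

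The receptors together summed to 68.1 and 76.4 FPKM in NC and to 63.4 and 67.5 FPKM in SKA3-KD. NOTCH3 made up 59.6% and 61.7% of that sum in NC and 55.5% and 57.2% in SKA3-KD, and NOTCH1 made up 14.6% and 15.7% in NC and 19.7% and 19.8% in SKA3-KD. The share of NOTCH2 overlapped between the groups, at 25.7% and 22.5% in NC and 24.7% and 23.0% in SKA3-KD. The ratio of NOTCH1 to NOTCH3, chosen after the values were seen and so given without a test, was 0.245 and 0.255 in NC and 0.356 and 0.346 in SKA3-KD. These ratios stood farther apart between the groups than within them.

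**Figure D2:**
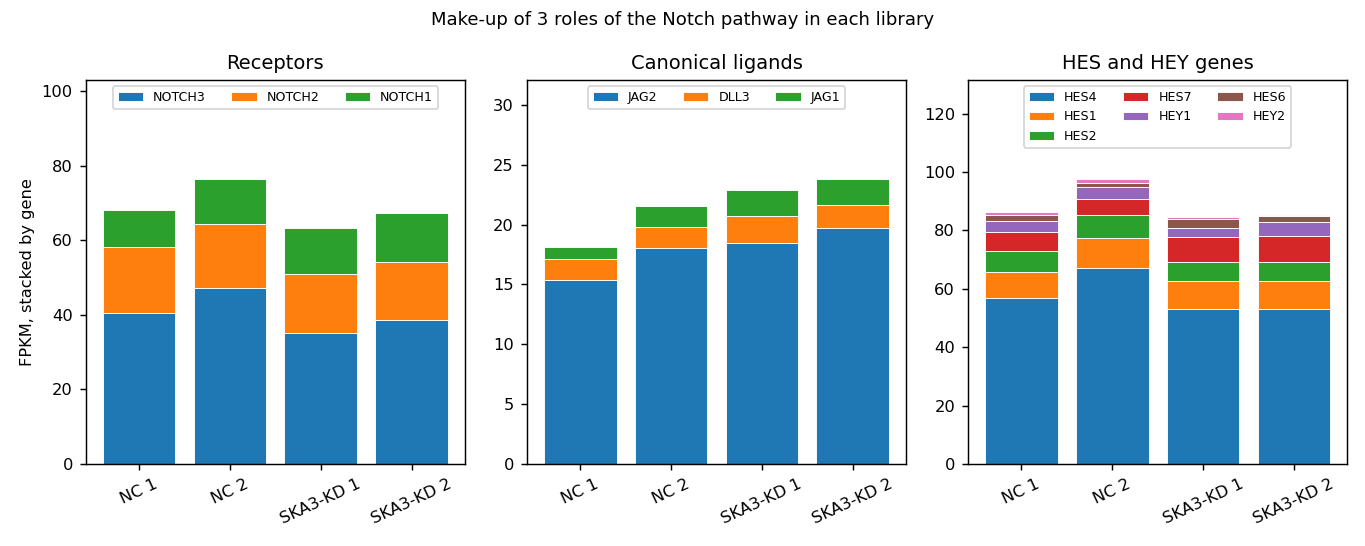
FPKM of the receptors, the canonical ligands and the HES and HEY genes in each of the 4 libraries, stacked by gene on linear axes from 0. NOTCH4, DLL1, DLL4, HES5 and HEYL, under 1 FPKM in every library, are left out of the bars, and the shares count them. NOTCH3 held between 55.5% and 61.7% of the receptor sum, JAG2 between 80.3% and 84.3% of the ligand sum and HES4 between 61.4% and 68.8% of the HES and HEY sum.

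Among the ligands, JAG2 took most of the signal. JAG2 (ENSG00000184916) was at 15.4 and 18.0 FPKM in NC and at 18.5 and 19.7 FPKM in SKA3-KD, with NC 2 close to SKA3-KD 1. JAG2 had a log2 fold change of 0.18 (95% interval -0.05 to 0.42, limma adjusted p = 0.248), and correcting for GC content and length left 0.06. Without NC 1 the value for JAG2 was 0.076, and without NC 2 it was 0.29. JAG2 held between 80.3% and 84.3% of the summed FPKM of the 5 canonical ligands.

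JAG1 (ENSG00000101384), the other Jagged ligand, was low, at 0.996 and 1.75 FPKM in NC and at 2.17 and 2.14 FPKM in SKA3-KD. The NC libraries differed more from each other than NC 2 did from either SKA3-KD library. The log2 fold change of JAG1 was 0.43 (95% interval -0.05 to 0.91, limma adjusted p = 0.192), and it was 0.20 without NC 1 and 0.66 without NC 2. The reads recovered for JAG1 were 75 and 99 in NC and 139 and 159 in SKA3-KD, and they would be larger if the authors' gene length was longer than the one that fits here.

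DLL1 (ENSG00000198719), a Delta-like ligand, was hardly detected and was not tested. Its values were 0 and 0.140 FPKM in NC and 0.0310 and 0.0801 FPKM in SKA3-KD. On a gene length fitted here, these came from 0, 4, 1 and 3 reads. The 0 of NC 1 allows up to 0.0788 FPKM, the worth of 3 reads, so a difference of that size in DLL1 was not detectable at this depth. DLL4, at 0 to 0.106 FPKM, was as low, and DLL3, a ligand that acts inside its own cell, was at 1.76 and 1.78 FPKM in NC and 2.29 and 1.94 FPKM in SKA3-KD (limma adjusted p = 0.399).

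LFNG (ENSG00000106003), a fringe enzyme that adds a sugar to Notch receptors and so shifts which ligands they answer to, was at 3.89 and 3.06 FPKM in NC and at 4.60 and 4.83 FPKM in SKA3-KD. Both SKA3-KD libraries lay above both NC libraries. LFNG had a log2 fold change of 0.36 (95% interval 0.06 to 0.65), with an unadjusted limma p of 0.0261 and an adjusted p of 0.110. Without NC 2 the value for LFNG was 0.22, and without NC 1 it was 0.49. RFNG, another fringe enzyme, was at 3.63 and 4.10 FPKM in NC and at 5.06 and 5.18 FPKM in SKA3-KD (limma adjusted p = 0.0703). MFNG, the remaining one, was at 1.81 and 2.33 FPKM in NC and at 1.61 and 1.64 FPKM in SKA3-KD (limma adjusted p = 0.337). The 3 fringe genes together summed to 9.34 and 9.50 FPKM in NC and to 11.3 and 11.6 FPKM in SKA3-KD.

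RBPJ (ENSG00000168214), the factor through which all Notch receptors reach DNA, was at 8.54 and 8.17 FPKM in NC and at 6.03 FPKM in both SKA3-KD libraries. The reads recovered were 924 and 666 in NC and 555 and 643 in SKA3-KD, on a gene length fitted here, as for JAG1. The groups did not overlap, with an SD of 0.261 FPKM in NC and 0.00071 FPKM in SKA3-KD (n = 2 each). An SD from 2 libraries is a poor measure of spread. Over genes, the SKA3-KD replicates differed by more than counting noise (chi-square per gene 3.91). RBPJ fell by 0.41 on the log2 scale (SE 0.07, 95% interval -0.58 to -0.24, limma adjusted p = 0.0275). The call did not hold with any 1 library left out, where the adjusted p was between 0.0895 and 0.121 and the log2 fold change between -0.44 and -0.38. It was also lost without the filter on low values (adjusted p = 0.0770) and without the mean-variance trend (adjusted p = 0.0517). RBPJ has processed pseudogenes in the human genome, and the part of its reads that could be assigned to them is uncertain.

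HES1 (ENSG00000114315), the classical Notch target and a repressor of differentiation genes, was at 9.08 and 10.3 FPKM in NC and at 9.29 and 9.58 FPKM in SKA3-KD. Both SKA3-KD libraries lay between the NC libraries. HES1 had a log2 fold change of -0.03 (95% interval -0.24 to 0.18, limma adjusted p = 0.834), an interval that leaves room for a change of up to 0.24 on the log2 scale. HEY1 (ENSG00000164683), a related repressor, was at 3.78 and 4.02 FPKM in NC and at 3.25 and 4.96 FPKM in SKA3-KD, with both extremes in SKA3-KD. HEY1 had a log2 fold change of 0.04 (95% interval -0.40 to 0.48, limma adjusted p = 0.899).

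The other HES and HEY genes were read from a list of the pathway. HES4 was the most abundant of them, at 56.8 and 67.3 FPKM in NC and at 53.3 and 53.0 FPKM in SKA3-KD (limma adjusted p = 0.187). HES7, a repressor known from the segmentation clock of the embryo, was at 6.40 and 5.82 FPKM in NC and at 8.36 and 8.72 FPKM in SKA3-KD. It was the only target gene on the list past the threshold, and it rose by 0.43 on the log2 scale (SE 0.08, limma adjusted p = 0.0330). NRARP, a target that dampens Notch signalling in turn, was at 21.5 and 22.8 FPKM in NC and at 20.1 and 17.9 FPKM in SKA3-KD (limma adjusted p = 0.146). HEY2, under the filter and not tested, was at 0.945 and 1.25 FPKM in NC and at 0.609 and 0.402 FPKM in SKA3-KD, from 31, 31, 17 and 13 reads. HES5 and HEYL were below 1 FPKM in all libraries and not tested, HES5 at 0.640 and 0.170 FPKM in NC and at 0.752 and 0.974 FPKM in SKA3-KD, from 10, 2, 10 and 15 reads, and HEYL at 0 to 0.0524 FPKM. The 9 HES and HEY genes summed to 86.9 and 97.7 FPKM in NC and to 85.3 and 86.4 FPKM in SKA3-KD.

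RBPJ binds DNA at a short motif with the core TGGGAA, most often preceded by G in the form GTGGGAA. Promoters are shown to set the measured genes beside the letters this factor reads. The windows are from RefSeq (GRCh38.p14), from 250 bases before to 50 after a gene's start. Windows of 8 of the 10 Notch genes were examined, 13 windows in all. No window of DLL1 or HEY1 was examined, so the presence of a motif at these genes was not tested. GTGGGAA on either strand lies in a window of HES1 and in 1 of 5 windows of RBPJ, and in none of NOTCH1, NOTCH2, NOTCH3, JAG1, JAG2 or LFNG. The core TGGGAA alone lies in 2 of 2 windows of LFNG, and in no window of NOTCH1, NOTCH2, NOTCH3, JAG1 or JAG2. Of 35116 windows of all genes, 6.25% hold GTGGGAA, 24.0% hold the shorter TGGGAA, which lies inside it, and 7.26% hold CACGTG, a motif that was in none of the 13. The motif CACNAG, the N-box that HES proteins read, is in 38.0% of all windows and also in windows of NOTCH1, NOTCH2, NOTCH3, LFNG, RBPJ and HES1. Of the 8 other target genes, 4 hold GTGGGAA in a window, namely HES4, HES5, HEY2 and HEYL. The windows of HES1, of the RBPJ start with the motif, of HES4 and of HEY2 are printed 5′ to 3′ on the strand of the gene, with capitals on GTGGGAA or on TTCCCAC, its form on the other strand. The window of HES1 lies at chr3:194135898-194136197 (plus strand), that of RBPJ at chr4:26319496-26319795 (plus strand), that of HES4 at chr1:1000048-1000347 (minus strand) and that of HEY2 at chr6:125749382-125749681 (plus strand).
HES1: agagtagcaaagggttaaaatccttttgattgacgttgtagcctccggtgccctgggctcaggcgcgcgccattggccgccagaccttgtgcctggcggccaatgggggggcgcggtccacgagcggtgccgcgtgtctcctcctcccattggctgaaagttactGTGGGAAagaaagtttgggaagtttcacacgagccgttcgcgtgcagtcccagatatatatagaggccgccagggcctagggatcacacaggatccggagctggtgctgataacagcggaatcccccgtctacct
RBPJ: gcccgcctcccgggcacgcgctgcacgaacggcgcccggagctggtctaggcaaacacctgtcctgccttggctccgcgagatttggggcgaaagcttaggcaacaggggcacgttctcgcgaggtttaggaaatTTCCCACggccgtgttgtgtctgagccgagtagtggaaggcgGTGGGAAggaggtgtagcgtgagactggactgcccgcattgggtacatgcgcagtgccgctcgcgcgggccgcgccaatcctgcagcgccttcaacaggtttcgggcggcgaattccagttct
HES4: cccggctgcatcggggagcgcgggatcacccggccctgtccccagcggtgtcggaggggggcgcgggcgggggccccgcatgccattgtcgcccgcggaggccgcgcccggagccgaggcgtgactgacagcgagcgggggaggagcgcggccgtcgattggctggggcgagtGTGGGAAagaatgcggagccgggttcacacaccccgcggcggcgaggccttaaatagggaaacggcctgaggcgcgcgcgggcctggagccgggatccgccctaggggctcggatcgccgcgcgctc
HEY2: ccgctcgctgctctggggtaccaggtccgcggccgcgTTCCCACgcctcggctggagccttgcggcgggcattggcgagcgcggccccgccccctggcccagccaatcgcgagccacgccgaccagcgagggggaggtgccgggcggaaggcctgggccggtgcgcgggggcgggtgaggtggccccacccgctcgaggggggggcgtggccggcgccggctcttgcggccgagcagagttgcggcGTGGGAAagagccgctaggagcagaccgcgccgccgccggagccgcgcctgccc
A match of letters describes the window and does not show binding. The match in HES1 starts 85 bases before the gene's start, with a second TGGGAA 70 bases before it, and the match in HES4 starts 77 bases before. The genes with the motif differed in their measured values: RBPJ passed the test, HES1 overlapped between the groups, HES4 did not pass, and HEY2, HES5 and HEYL were too low to be tested.

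The rest of the pathway was read from a list of 65 genes, 63 of which were in the table and 53 of which were tested. In this list 1 gene fell and 4 rose, against 6.11% and 6.16% of all genes tested, and the median log2 fold change was 0.07. FURIN, the protease that cuts Notch receptors on their way to the surface, was at 40.6 and 46.3 FPKM in NC and at 73.4 and 76.9 FPKM in SKA3-KD, a log2 fold change of 0.78 (SE 0.08, limma adjusted p = 0.0129). DNER, a neuronal protein described as a non-canonical Notch ligand, rose from 23.7 and 21.9 FPKM to 32.5 and 29.1 FPKM, a log2 fold change of 0.42 (SE 0.08, limma adjusted p = 0.0388). KAT2A, a histone acetyltransferase that serves as a co-activator, rose from 16.4 and 17.4 FPKM to 22.8 and 23.3 FPKM, a log2 fold change of 0.43 (SE 0.06, limma adjusted p = 0.0225). CTBP2, a co-repressor, fell from 14.2 and 15.1 FPKM to 9.80 and 11.3 FPKM, a log2 fold change of -0.45 (SE 0.09, limma adjusted p = 0.0384). In all 5 called genes, HES7 included, the groups did not overlap, and none of the 5 passed the threshold with any 1 library left out, nor without the filter on low values. Without the mean-variance trend, FURIN kept its call (adjusted p = 0.0361), while HES7 (0.0591), KAT2A (0.0523), CTBP2 (0.0701) and DNER (0.0750) lost theirs.

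The other roles held few calls. Of 9 tested genes for receptor cleavage, FURIN was the only one called. The gamma-secretase subunit NCSTN was at 30.8 and 31.2 FPKM in NC and 31.6 and 30.5 FPKM in SKA3-KD, a log2 fold change of 0.00 (95% interval -0.14 to 0.15), and the protease ADAM10 was at 17.3 and 16.6 FPKM against 20.3 and 18.2 FPKM (limma adjusted p = 0.199). None of 4 tested glycosylation genes and none of 10 tested genes for ubiquitination and trafficking was called by limma. At an unadjusted p under 0.05, RFNG was the only one of the former, and NEURL1B (positive) and DTX4 (negative) were the only ones of the latter, beside 15.1% lower and 16.2% higher of all genes tested. The largest fold change among the latter was that of NEURL1B, a ubiquitin ligase for ligands, at 0.533 and 0.794 FPKM in NC and 1.53 and 1.95 FPKM in SKA3-KD (log2 fold change 0.72, limma adjusted p = 0.0630). A positive log2 fold change was found in 51.6% of all genes tested, in 7 of the 8 co-activators, of which KAT2A was called, and in 10 of the 13 co-repressors. CTBP2, one of the 3 negative co-repressors, was called. Among genes of suprabasal differentiation, KRT10 was at 54.6 to 59.2 FPKM without a difference past the spread (limma adjusted p = 0.783). KRT4 and KRT13 were at or under 0.0762 FPKM and were not tested. KRT1 and IVL, also on the list, were not among the genes of the expression table.

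**Figure D3:**
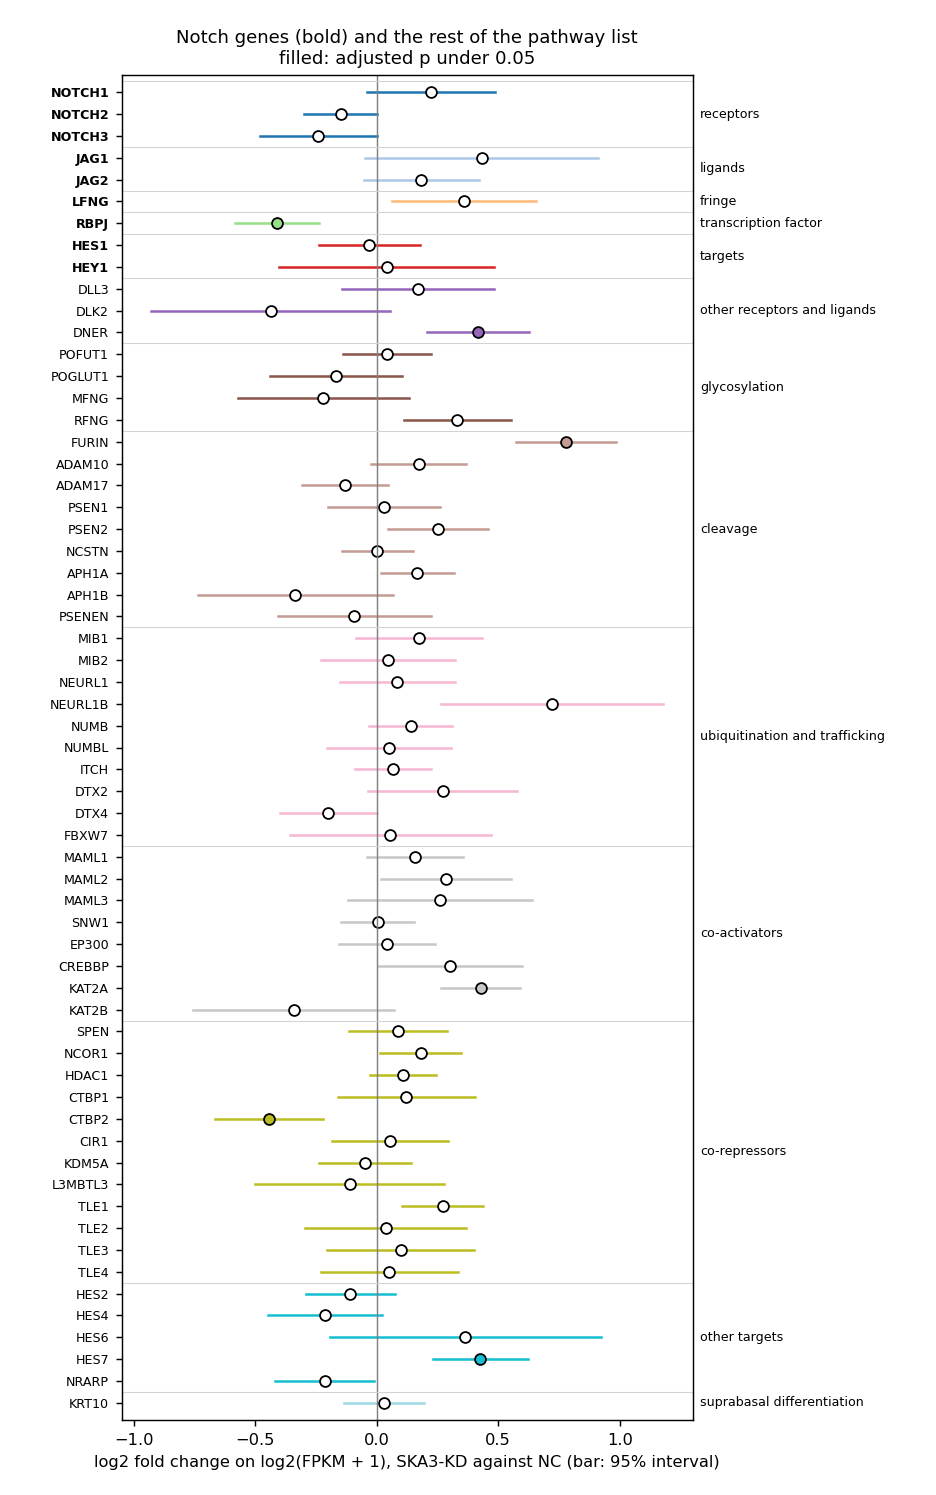
Log2 fold change of SKA3-KD against NC, on the log2(FPKM + 1) scale, for the Notch genes (bold) and for the genes of the pathway list grouped by role. Points are tested genes, bars are 95% intervals, and filled points passed an adjusted p of 0.05. RBPJ at -0.41 is the filled point among the Notch genes, and FURIN at 0.78 is the highest filled point of the list.

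The levels of the Notch genes fell into an order that was nearly the same in both groups. In NC, NOTCH3 stood above NOTCH2 and JAG2, whose libraries overlapped at 17.2 to 17.5 FPKM and 15.4 to 18.0 FPKM. NOTCH1 and HES1 came next and overlapped with each other, RBPJ followed just under HES1, HEY1 and LFNG overlapped, and JAG1 and DLL1 were the lowest. In SKA3-KD, JAG2 stood above NOTCH2 and NOTCH1 stood above HES1 without overlap, and LFNG and HEY1 overlapped again.

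The number of calls depended on the test. With limma voom on whole reads recovered from the FPKM steps, NOTCH3 and RBPJ were called lower and NOTCH1, JAG1 and LFNG higher, where 12.1% of all genes were called lower and 13.5% higher. The log2 fold changes under voom were -0.24 for NOTCH3 (adjusted p = 0.0238), 0.25 for NOTCH1 (adjusted p = 0.0382), 0.76 for JAG1 (adjusted p = 0.00743) and 0.43 for LFNG (adjusted p = 0.0479). With the GC and length correction, NOTCH3, at -0.36 (limma adjusted p = 0.00970), and NOTCH2, at -0.21 (limma adjusted p = 0.0392), were called beside RBPJ. Under that correction 1243 of 12241 genes were called lower and 1310 higher. HES1, HEY1 and JAG2 passed under no setting tried, and a p that misses the threshold does not show that their levels were alike.

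**Figure D4:**
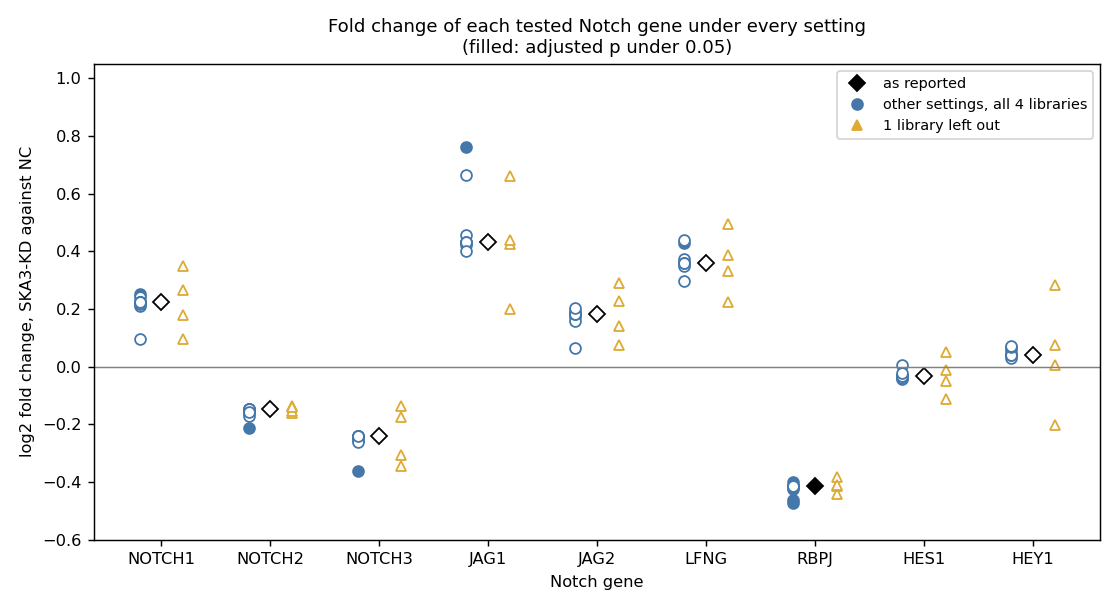
Log2 fold change (SKA3-KD against NC) of each of the 9 tested Notch genes as reported (diamonds), under other settings with all 4 libraries (circles) and with 1 library left out (triangles). Filled symbols passed an adjusted p of 0.05. RBPJ lay between -0.47 and -0.38 throughout, with no filled triangle, and JAG1 ranged from 0.20 to 0.76.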

How the data were processed

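RNA of TU-177 cells was extracted with Trizol and sequenced on a HiSeq instrument as 4 libraries (2 NC, 2 SKA3-KD). The deposited values are FPKM, which the authors scaled to gene length and library size. The submitters' processing notes name the build hg19 and the tools HISAT2, Bowtie2 2.2.8, StringTie 1.3.1 and Cuffdiff 2.1.1, with no order or role. Strand use in counting is not given in the sources used here, so reads of a gene and of an overlapping antisense gene cannot be told apart.

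Log2(FPKM + 1) values of 12645 genes, those whose FPKM averaged 1 or more, were fitted with limma 3.58.1 in R 4.3.3 (lmFit, eBayes with trend), without a block, with Benjamini-Hochberg adjustment over all of them and a threshold of 0.05. The study's methods name no test for these data. With 2 against 2, an exact permutation test cannot go below p = 0.333. Symbols were paired by Ensembl identifier for 27043 genes, and GENCODE 29 (GRCh38) gave lengths and GC content. That build differs from hg19, so the only coordinates given are those of the RefSeq promoter windows, in their own build GRCh38.p14.

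Library sizes were found from the steps of the FPKM values, which gave whole reads, within a tolerance of 0.01, for 99.98% of the genes tested, though for only 61.3% with the GENCODE 29 length. Limma voom on these reads called 1534 genes lower and 1709 higher. Replicates differed by more than counting noise (chi-square per gene 4.00 in NC and 3.91 in SKA3-KD). The limit that a count of 0 allows is 3 reads, and it covers counting error only.

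The Notch genes, the pathway list and the marker lists were chosen with earlier results of these data known. Named genes are SKA3, the 10 Notch genes, every gene of the pathway list past the threshold, and others as examples of their role. Values of 1 gene counted in the pathway list are not reported here. The settings tried beside these were limma voom, a correction for GC content and length, a replicate block, eBayes with its trend switched off, quantile or median-of-ratios scaling, a pseudocount of 0.1, a filter at a mean of 5 or none, and fits that leave out each library.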

Additional observations from a re-analysis of the deposited data

How the results depend on the processing

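Genes called lower and higher numbered 772 and 779. They numbered 81 and 48 without the filter on low values, 381 and 312 without the trend, 1243 and 1310 with the GC and length correction, 1534 and 1709 with voom, and 0 to 135 and 0 to 46 with 1 library left out. In those leave-one-out fits the lone library of a group is assumed to vary like the other group. Of the Notch genes, 1 was called lower. The number was 0 without the filter, 0 without the trend and 0 with any 1 library left out, 2 with voom and 3 with the GC and length correction. None was called higher, except 3 with voom. The cause of these differences was not tested. Same-numbered libraries deviated together with a correlation of only 0.0973 over genes (2 pairs), so the numbers were not taken as pairing the samples. With the replicate block, 965 genes were lower and 1002 higher, and 2 Notch genes were called lower, NOTCH3 having an adjusted p of 0.0491. The log2 fold change of HES1 changed sign to 0.0062 with the GC and length correction and lay between -0.11 and 0.050 with 1 library left out, positive without NC 2. That of HEY1 lay between -0.20 and 0.28 with 1 library left out, negative without SKA3-KD 2. DLL1 is limited by depth, at 4 reads at most. JAG1 reached 159 reads in its highest library, and whether depth limited its result was not tested.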
